A study of Sus scrofa with 12 samples.

Results

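The 6 male pigs of a study of muscle and drip loss were compared here, 3 of them labelled high drip and 3 labelled low drip, out of 12 animals in the whole series. Drip loss is the fluid that meat gives up after slaughter, and high drip means that the muscle holds its water poorly. The males were taken as a group of 1 sex in which every whole-genome count table and its record name the same animal. They carry replicate numbers 4, 5 and 6 in each group (numbers given by order of record, which pair no animals). All 6 samples were muscle, and the labels used here do not say which muscle, which breed or what drip value. The high drip males were 172, 186 and 167 days old (175 ± 9.85 days, mean ± SD) and the low drip males 179, 172 and 172 days old (174 ± 4.04 days). The labels used here name no treatment or allele, so the groups differ by their drip label and by whatever else varied between these animals.

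Skeletal muscle goes on working after slaughter. It burns glycogen to lactate without oxygen, the acid lowers the pH, and the contractile proteins shrink and shed water, more so when the pH falls while the carcass is still warm. Fibre type sets the balance between glycolysis and mitochondrial respiration, and stress hormones such as cortisol act through the glucocorticoid receptor on fuel use and protein breakdown in muscle.

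RNA-seq counts were available for 20741 features per animal, with 8009627 to 11429957 counts in each whole-genome table and 137166 to 184398 in each table of regions with loci for water holding capacity. A region table shared 739 to 744 of its 770 counts with its own animal's whole-genome table, and at most 152 with another male's. Libraries correlated at 0.972 to 0.978 within high drip, 0.966 to 0.981 within low drip and 0.968 to 0.979 between the groups (log2 values across genes, which are not independent replicates). Levels below are CPM, counts scaled to a common library size with edgeR's factors, and 1 count was worth 0.0915 to 0.121 CPM. All 8 skeletal muscle markers with an identifier were tested, and their summed level was 143980 to 195990 CPM in high and 158740 to 166930 CPM in low drip males.

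Liver transcripts divided the 6 libraries in a way that crossed the drip labels. ALB (ENSSSCG00000008948), the gene of the main plasma protein, serum albumin, a product of hepatocytes, stood at 27.2 CPM in high drip replicate 4, 1.94 in replicate 5 and 0.373 in replicate 6. In low drip males it was at 2.40, 57.5 and 40.8 CPM in replicates 4, 5 and 6. High drip replicate 4 and low drip replicates 5 and 6 were thus far above the other 3 animals, and the drip groups overlapped. The mean difference was -2.29 in log2(CPM + 0.5), high less low (two-sided exact permutation p = 0.2 over 20 regroupings, where the smallest possible p is 0.1). Counting intervals (95%, exact Poisson) were 24.2 to 30.5 CPM for high drip replicate 4 and 0.102 to 0.955 CPM for high drip replicate 6, and cover counting error only. Of 14 tested liver markers, 13 were lower in high drip males, with a median fold of -1.02, and the only higher one was ITIH4, a plasma protein, at 275 CPM in high drip replicate 4. Without high drip replicate 4 the median was -2.71, and without replicate 6 it was -0.55.

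The strongest axis of variation split the libraries in the same way and not by the drip label. The first principal component of the 500 most variable genes held 38.7% of their variance. Liver markers were not kept out of the choice of these genes, so the component is no separate support for the division. Its scores were 10.2 for high drip replicate 4, 16.2 for low drip replicate 5 and 6.25 for low drip replicate 6, against -9.25 and -9.08 for high drip replicates 5 and 6 and -14.3 for low drip replicate 4.

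**Figure D1:**
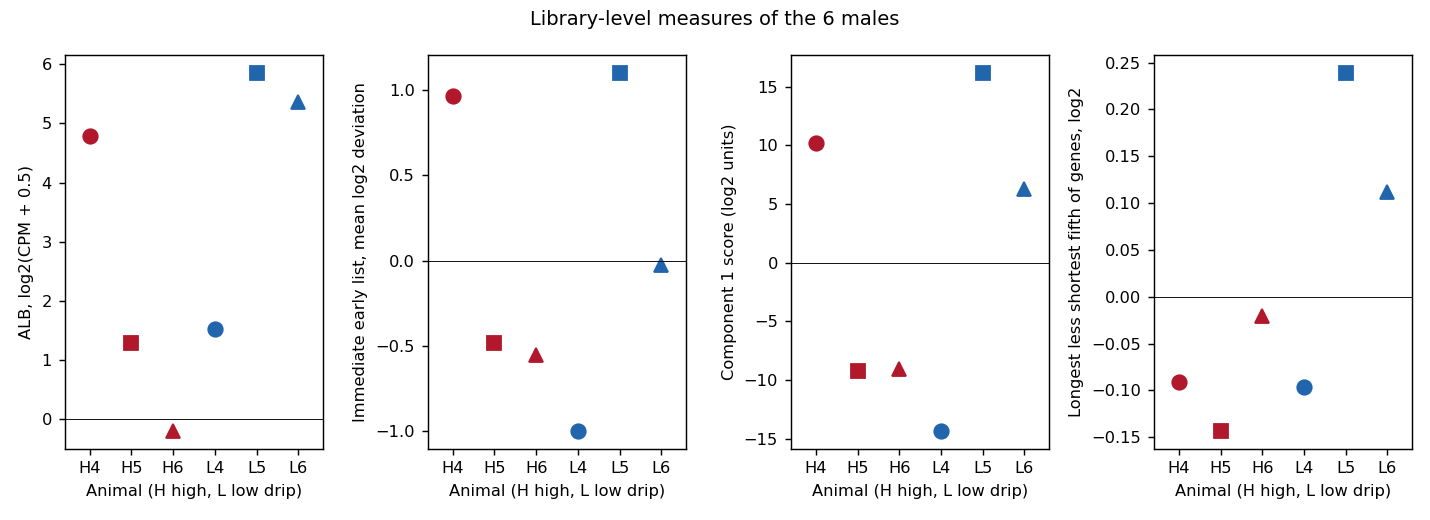
Measures of each of the 6 male libraries: ALB as log2(CPM + 0.5), the mean deviation of immediate early genes from their mean over animals, the score on the first principal component, and the mean deviation of the genes with the longest genomic spans (1363 genes) less that of those with the shortest (1364) (all in log2 units, H for high and L for low drip, with the replicate number). The first 3 measures put H4, L5 and mostly L6 on one side (L6 is at -0.0286 for immediate early genes), and the last stands above 0 in L5 (0.239) and L6 (0.111).

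The comparison asked which muscle transcripts differ between high and low drip males. No feature passed the threshold: with edgeR, 0 of 10347 tested features (0%) had a Benjamini-Hochberg adjusted p under 0.05, and the smallest adjusted p was 0.999. An unadjusted p below 0.05 belonged to 422 features (4.08%), 188 of them higher in high drip males (1.82%) and 234 lower (2.26%), where 517.35 would be expected with no difference at all. Limma voom gave 0 passing features and 421 with such a p, while in DESeq2 3 passed, 1 higher and 2 lower, and 334 had such a p. Without low drip replicate 6, 1 feature passed in edgeR and 258 had such a p, and without low drip replicate 4 none passed and 811 had such a p. That 1 feature met the filter on low counts (about 10 counts in enough libraries) only through the low drip males left in. Its passing therefore adds no support. The 2 groups did not overlap for 995 features (9.62%), 472 with every high drip male above every low drip male (4.56%) and 523 with every one below (5.05%). Folds are log2 differences, high less low drip, given with a standard error worked out from the fold and its F statistic. Their median over all features was 0.0059 and their quartiles were -0.16 and 0.16, and 51.2% were above 0 and 48.8% below. More than 2-fold differences (a fold beyond 1 in either direction) were seen for 48 features up and 63 down. With 3 animals a side, edgeR and voom could not tell differences of the sizes given below from the spread between animals once all features were counted. In DESeq2 this held for all but the 3 passing features.

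**Figure D2:**
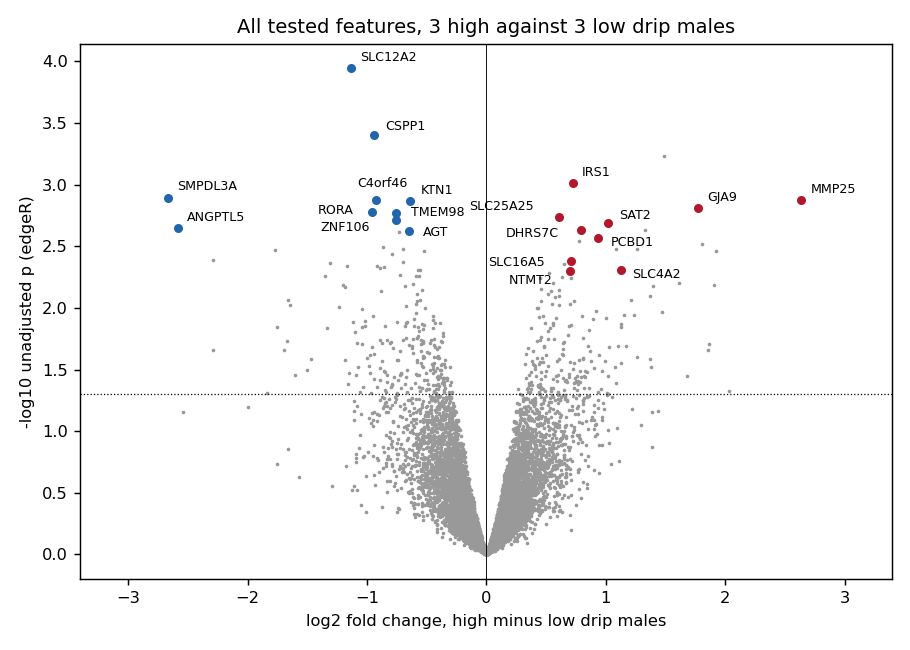
Log2 fold change (high less low drip males) of the 10347 tested features against the negative log10 of the unadjusted edgeR p, with the dotted line at the 0.05 threshold of the unadjusted p. The 10 named genes with the smallest p in each direction are coloured, and SLC12A2 stands highest, with an adjusted p of 0.999 (edgeR).

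Among genes with a symbol, the smallest p belonged to SLC12A2 (ENSSSCG00000014255), the cotransporter that carries sodium, potassium and chloride into cells and so moves water across their membranes. It was at 66.7, 48.3 and 52.9 CPM in the high drip males (replicates 4, 5 and 6, in that order here and below) and at 130, 102 and 136 CPM in the low drip males. Every high drip male was below every low drip male, and the groups were separated by a wide gap. The fold was -1.13 ± 0.17 (edgeR unadjusted p = 0.000114, Benjamini-Hochberg adjusted p = 0.999). In DESeq2, fitted to the same counts, SLC12A2 passed with an adjusted p of 0.000253 and the same fold. Its fold was -0.84 in the 3 libraries with liver transcripts and -1.36 in the 3 without. Each rests on a single animal on one side, high drip replicate 4 and low drip replicate 4. As the groups did not overlap, the sign of both was fixed in advance. SLC12A2 was also picked by its smallest p in these animals, so the separation adds no support.

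The other 9 genes at the lower end held no common function by their known roles. In each the groups did not overlap (every high drip male was below every low drip male in 5.05% of all features). Picking the smallest p in these same animals favours such separation, so it adds no support. RORA, a nuclear receptor of the circadian clock, was at 19.6, 12.8 and 19.5 CPM in high and 27.9, 32.2 and 41.3 CPM in low drip males (fold -0.96 ± 0.22). AGT, the precursor of angiotensin, was at 19.5, 20.9 and 18.1 against 32.3, 26.2 and 33.3 CPM (-0.65 ± 0.15). ZNF106, a zinc finger protein abundant in these libraries, was at 2479, 1920 and 2463 against 3249, 4590 and 3766 CPM (-0.76 ± 0.17). In RORA high drip replicate 5 was the lowest animal and low drip replicate 6 the highest, and in ZNF106 they were high drip replicate 5 and low drip replicate 5.

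SMPDL3A, a phosphodiesterase related to acid sphingomyelinase, had a larger fold that leaned on 1 animal. It was at 10.1, 10.05 and 9.05 CPM in high drip males and at 20.7, 39.4 and 125 CPM in low drip males. Low drip replicate 6 was the highest by far, and the fold of -2.67 ± 0.58 was -1.62 without it. ANGPTL5, an angiopoietin-like secreted protein, rested on few reads, with 2, 0 and 4 counts in high and 11, 12 and 16 counts in low drip males (-2.58 ± 0.61). It met the filter on low counts only through the low drip males, which favours a large fold. CSPP1, a centrosome protein, had a fold of -0.94 ± 0.17, KTN1, which binds the motor protein kinesin, -0.64 ± 0.14, TMEM98, a membrane protein, -0.75 ± 0.17, and C4orf46 -0.93 ± 0.20.

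At the higher end stood IRS1 (ENSSSCG00000025729), the docking protein that passes the insulin receptor's signal on to PI3 kinase. It was at 57.2, 74.3 and 66.8 CPM in high drip males and at 43.4, 36.0 and 40.4 CPM in low drip males. All high drip values were above all low drip values, and the fold was 0.73 ± 0.15 (edgeR unadjusted p = 0.000975, adjusted p = 0.999). It was 0.58 in the libraries with liver transcripts and 0.70 in those without, each resting on a single animal on one side. As the groups did not overlap, the sign of both was fixed in advance, and the split adds no support.

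Several other genes at this end belong to mitochondria, the sarcoplasmic reticulum or the plasma membrane. None of their groups overlapped, which the choice by smallest p likewise favours (4.56% of all features had every high drip male above). DHRS7C, a dehydrogenase of the sarcoplasmic reticulum, was at 749, 713 and 456 CPM in high and 360, 369 and 377 CPM in low drip males (fold 0.79 ± 0.19), so high drip replicate 6 lay nearest the low drip males. SLC25A25, the mitochondrial carrier of ATP-magnesium and phosphate, was at 278, 219 and 235 against 158, 173 and 148 CPM (0.61 ± 0.14). SLC16A5, a monocarboxylate transporter, was at 125, 97.3 and 116 against 81.1, 73.5 and 52.3 CPM (0.71 ± 0.19). SLC4A2, which exchanges chloride for bicarbonate, was at 18.2, 17.2 and 9.51 against 9.27, 5.67 and 5.58 CPM (1.13 ± 0.30), with high drip replicate 6 just above low drip replicate 4.

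MMP25, a membrane-bound matrix metalloproteinase, had the largest fold of the named higher genes at low levels. It was at 6.78, 2.30 and 1.86 CPM in high and 0.521, 0.576 and 0.640 CPM in low drip males (2.64 ± 0.57), and without high drip replicate 4 the fold was 1.81. MMP25 met the filter on low counts only through the high drip males, which favours a large fold. GJA9, a gap junction protein, had a fold of 1.77 ± 0.39 at 0.366 to 2.89 CPM, SAT2, an acetyltransferase, 1.02 ± 0.24, PCBD1, which recycles tetrahydrobiopterin, 0.94 ± 0.23, and NTMT2, an N-terminal methyltransferase, 0.70 ± 0.19. The adjusted p was 0.999 for each of these 20 genes (edgeR).

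**Figure D3:**
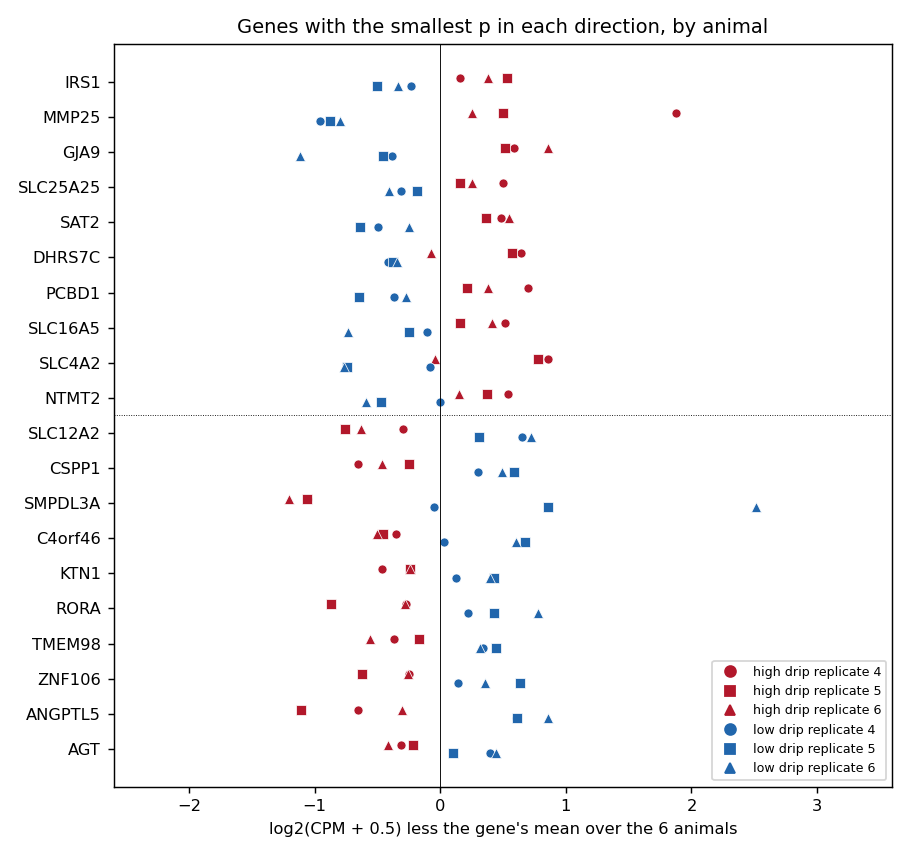
Levels of the 10 genes with the smallest p in each direction, as log2(CPM + 0.5) less the gene's mean over the 6 males, with 1 symbol per animal (red high, blue low drip). In each gene the red and blue symbols do not overlap, which the choice by smallest p favours. Single animals stand out in MMP25 (high drip replicate 4, 6.78 CPM) and SMPDL3A (low drip replicate 6, 125 CPM).

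The sign of a gene's fold varied with its genomic span. Spans, the distance from a gene's start to its end with introns, were taken by symbol from RefSeq's Sscrofa11.1 annotation for 6816 of 7191 tested genes with a symbol (94.8%), a check chosen after the values were seen. The median fold was 0.08 in the 1364 genes with the shortest spans and -0.09 in the 1363 with the longest, and the Spearman correlation over genes was -0.25. Among the shortest genes, 50 genes were higher and 11 lower with an unadjusted p under 0.05, and among the longest 15 were higher and 68 lower. By animal, the mean deviation of the longest less that of the shortest was -0.09, -0.14 and -0.02 in high drip males and -0.10, 0.24 and 0.11 in low drip replicates 4, 5 and 6. Low drip replicates 5 and 6 thus stood apart from low drip replicate 4, which lay among the high drip males. With an animal left out this correlation lay between -0.31 (without low drip replicate 4) and -0.13 (without low drip replicate 5). It was -0.25 in the 3 libraries with liver transcripts and 0.01 in the 3 without. SLC12A2, KTN1 and RORA span 92.9, 109 and 764 kb, and the median span was 63.4 kb for the named lower genes and 17.2 kb for the named higher ones. The part of span in any single gene's fold was not tested.

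Genes that respond to glucocorticoids were mostly lower in high drip males. Of 12 tested members, 10 were lower and 2 higher, with a median fold of -0.42. A p below 0.05 before adjustment belonged to 4 of them, all lower, and 3 were below in every high drip male, against 2.26% and 5.05% of all features. None passed the threshold. FKBP5, a cochaperone of the glucocorticoid receptor that cortisol induces, was at 44.1, 55.1 and 69.8 CPM in high drip males and at 150, 68.3 and 162 CPM in low drip males. Low drip replicates 4 and 6 were high, and low drip replicate 5 lay just under the top high drip male, so the groups overlapped (fold -1.17 ± 0.31, edgeR unadjusted p = 0.00454, adjusted p = 0.999).

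The receptor and other members of the list showed different animals behind the same sign. NR3C1, the glucocorticoid receptor itself, was at 61.6, 59.6 and 60.2 CPM in high and 59.6, 126 and 83.0 CPM in low drip males (-0.57 ± 0.24), and without low drip replicate 5 the fold was -0.23. FOXO3, a transcription factor that drives muscle wasting genes, was at 24.1, 26.4 and 20.6 against 40.3, 26.5 and 41.2 CPM (-0.61 ± 0.20). FOXO3 separated the groups by a narrow margin, and NR3C1 was highest in low drip replicate 5, where FKBP5 and FOXO3 were lowest among the low drip males. The list's median lay between -0.52 and -0.27 when any single animal was left out, and was -0.43 and -0.41 in libraries with and without liver transcripts. Its 12 members have a median span of 69.5 kb, above the 33.1 kb of all genes with a span.

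One member set high drip replicate 6 apart from the other 5 males. PDK4, the kinase that shuts pyruvate out of the citrate cycle during fasting, reached 2500 CPM in high drip replicate 4 and 2283 CPM in replicate 5. It had 2063, 2396 and 2887 CPM in low drip males, and 84.9 CPM in high drip replicate 6. Of 5680 genes with a mean of at least 10 CPM, PDK4 and SMDT1 alone were 8-fold or more away from all 5 other animals in 1 animal (a rule chosen after the values were seen). FBXO32, which encodes the atrophy ligase atrogin-1, was also lowest there, at 26.4 CPM against 87.3 to 141 CPM. TRIM63, the ligase MuRF1, was at 333 CPM there against 604 to 1315 CPM. The folds of PDK4 and TRIM63 were -0.59 ± 0.84 and -0.58 ± 0.35, and PDK4's was -0.03 when high drip replicate 6 was left out. FBXO32 had a fold of 0.05, and of 0.50 without that animal.

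Nuclear genes of oxidative phosphorylation, the respiratory chain and ATP synthase of mitochondria, were slightly higher in high drip males throughout. All 29 tested members had a positive fold, beside 51.2% of all features, with a median of 0.17 and a range of 0.0018 to 0.41. Only 1 had an unadjusted p under 0.05, and in 4 every high drip male was above every low drip male, beside 1.82% and 4.56% of all features. NDUFV1, a complex I subunit, was at 157, 143 and 106 CPM in high and 109, 99.1 and 102 CPM in low drip males (fold 0.38 ± 0.16, edgeR adjusted p = 0.999). High drip replicates 4 and 5 were above all low drip males and replicate 6 lay among them.

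In the list's mean deviation high drip replicates 4 and 5 were again the highest, and high drip replicate 6 lay just above all 3 low drip males. That deviation was 0.20, 0.10 and -0.03 in high and -0.12, -0.04 and -0.10 in low drip males (log2). NDUFA9 was at 205, 220 and 184 against 161, 178 and 165 CPM (0.27 ± 0.13), and NDUFB7 at 67.9, 77.0 and 70.6 against 57.9, 56.8 and 64.3 CPM (0.27 ± 0.13). COX4I1, of complex IV, and ATP5MC1, of ATP synthase, had folds of 0.28 and 0.25. Without high drip replicate 4 the median was 0.10 with 26 of 29 above 0, and in the libraries without liver transcripts 24 of 29 were above 0. Spans matched by symbol for only 18 of the 29 members, so the check of span is void for the list as a whole. Those 18 have a median span of 9.06 kb, below the 33.1 kb of all genes with a span, and the genes with the shortest spans had a median fold of 0.08.

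**Figure D4:**
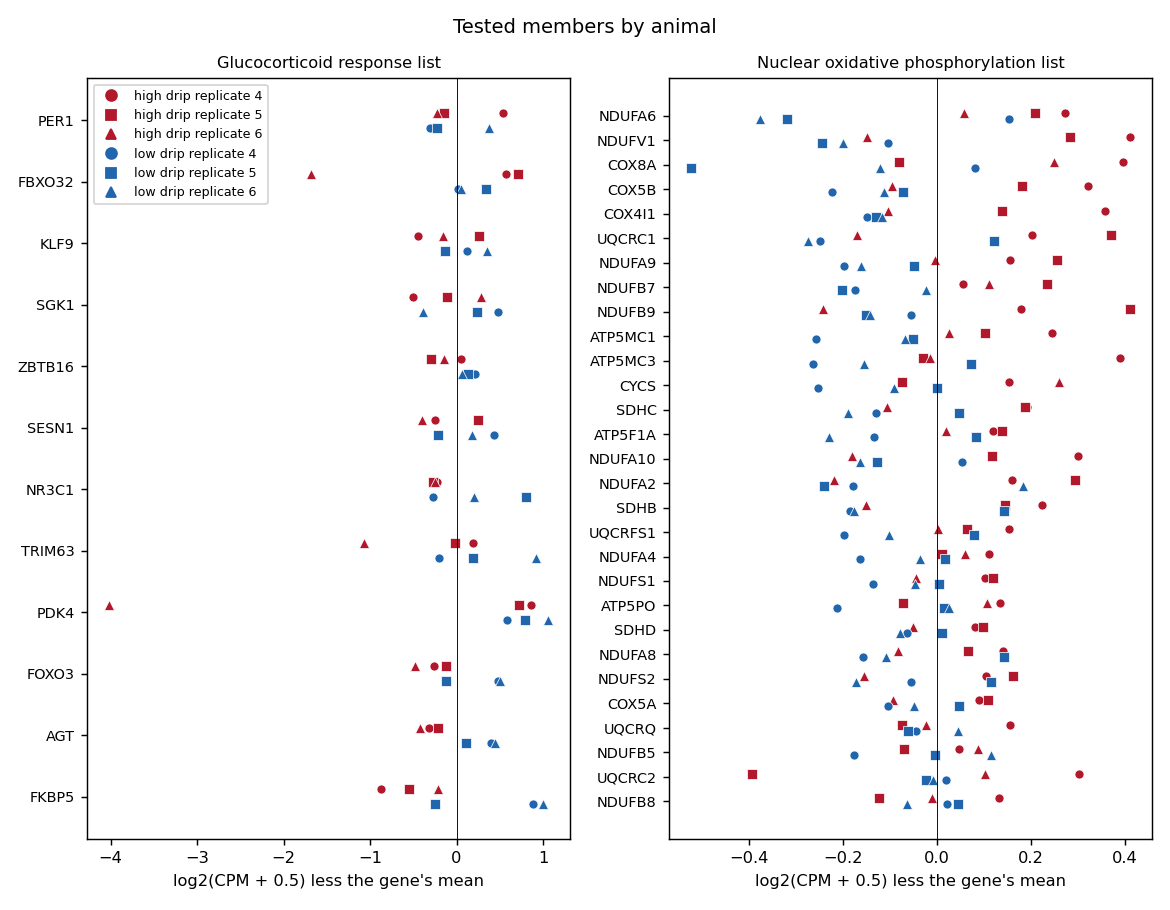
Tested members of the glucocorticoid response list (left, 12 genes) and the nuclear oxidative phosphorylation list (right, 29 genes) by animal, as log2(CPM + 0.5) less the gene's mean over the 6 males, ordered by fold. On the left, high drip replicate 6 is far below the rest in PDK4 (84.9 CPM), and on the right high drip replicates 4 and 5 tend to the right, while high drip replicate 6 (list mean deviation -0.03) lies just above the low drip males over the list (-0.12 to -0.04).

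Other fuel genes had smaller folds. In the citrate cycle and fatty acid oxidation list 16 of 25 tested members were higher (median 0.05), among them ACADS, which oxidises short-chain fatty acids (fold 0.35 ± 0.15), and DLST, of the oxoglutarate dehydrogenase (0.24 ± 0.15). In glycolysis 14 of 16 were higher (median 0.11), but the median was 0.0062 without high drip replicate 4, which had the highest mean deviation for this list (0.40), and -0.02 in the libraries without liver transcripts. PKM, the muscle pyruvate kinase, was at 15941, 15203 and 12569 CPM in high and 12557, 11505 and 11370 CPM in low drip males (0.30 ± 0.15), with high drip replicate 6 barely above low drip replicate 4. SLC16A3, which exports lactate, and PGAM1, a phosphoglycerate mutase, had folds of 0.52 ± 0.41 and 0.24 ± 0.19. LDHA, which makes lactate, was at 16540 to 19065 CPM in high and 17023 to 18760 CPM in low drip males, and its fold was -0.0022 ± 0.14. HK2, the inducible hexokinase, was at 104 CPM in high drip replicate 4 and 20.7 to 44.0 CPM in the other 5 animals.

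Glycogen genes differed mainly in PRKAG3 (ENSSSCG00000016200), the muscle-specific regulatory subunit of the AMP-activated kinase, whose variants alter glycogen and meat quality in pigs. It was at 96.5, 160 and 189 CPM in the high drip males and at 121, 70.8 and 76.6 CPM in the low drip males. The 3 lowest values belonged to the 3 libraries with liver transcripts, and the drip groups overlapped. The fold was 0.73 ± 0.28 (edgeR unadjusted p = 0.028, adjusted p = 0.999), 0.46 with the liver transcript division as a term, and 0.39 and 0.52 within the libraries with and without those transcripts. Of 18 tested members of the list 10 were higher (median 0.05). PRKAB2, another subunit of the kinase, had a fold of -0.28 ± 0.13 and did not overlap between groups. PHKG1, the catalytic subunit of phosphorylase kinase in muscle, was at 170, 240 and 211 against 179, 203 and 153 CPM (0.21 ± 0.17), and the glycogen phosphorylase PYGM had a fold of 0.05 ± 0.19. Both overlapped between groups.

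Slow fibre genes did not share a sign. MYH7B, a slow-type myosin heavy chain, was at 143, 134 and 116 CPM in high and 66.4, 115 and 62.3 CPM in low drip males (0.69 ± 0.23). MYL3, the slow and cardiac myosin light chain, was at 2318, 2070 and 1786 against 1074, 1960 and 1057 CPM (0.59 ± 0.25). In both, low drip replicate 5 was close to the high drip males and low drip replicates 4 and 6 were about equally low. TNNT1, the slow troponin T, also had its highest low drip value in replicate 5, at 3575, 3651 and 3418 against 2705, 3409 and 2762 CPM (0.26), a gene chosen after its values were seen.

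CA3, the carbonic anhydrase abundant in slow fibres, had the opposite sign. It was at 6633, 4693 and 7283 CPM in high and 8807, 8381 and 10253 CPM in low drip males, with no overlap (-0.56 ± 0.19, edgeR unadjusted p = 0.0154, adjusted p = 0.999). CSRP3, the muscle LIM protein, had its lowest level, 79.5 CPM, in high drip replicate 6, with 166 to 567 CPM elsewhere. The list's 7 tested members had 5 positive folds (median 0.12). MYH7, the main slow myosin, has no identifier here.

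Fast fibre genes were divided evenly, with 4 of 8 tested members higher (median -0.01). MYLK2, the kinase of the fast myosin light chain, was at 848, 1213 and 1131 CPM in high and 874, 710 and 648 CPM in low drip males (0.52 ± 0.18), so high drip replicate 4 lay below low drip replicate 4. As for PRKAG3, high drip replicate 4 and low drip replicates 5 and 6 were the 3 lowest animals. The calcium pump ATP2A1 and the myosin binding protein MYBPC2 had folds of 0.11 ± 0.15 and 0.11 ± 0.16.

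Of 17 tested genes of calcium release and coupling 10 were higher (median 0.04), with triadin (TRDN) at -0.30 ± 0.15, the mitochondrial calcium uniporter MCU at -0.31 ± 0.16 and the calcium channel subunit CACNG1 at 0.22 ± 0.13. The groups did not overlap for CACNG1. SMDT1, a subunit of the uniporter complex, was at 0.186 CPM in high drip replicate 4 and 6.46 to 32.2 CPM in the other males, and its fold of 0.33 ± 0.93 was 0.92 without that animal and -0.60 without high drip replicate 5. RYR1, the calcium release channel whose variants cause porcine stress syndrome, has no identifier here.

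Genes whose proteins anchor the sarcomere or link it to the membrane leaned lower in high drip males. Of 18 tested members 13 were lower (median -0.12), none had an unadjusted p under 0.05, and 3 were below in every high drip male, beside 5.05% of all features. XIRP2, an actin-binding repeat protein, was at 4502, 3260 and 2404 CPM in high and 3430, 5385 and 6111 CPM in low drip males (-0.55 ± 0.27), with low drip replicate 4 inside the high drip range. Nebulin (NEB) and PDLIM5 had folds of -0.24 ± 0.15 and -0.21 ± 0.12. These genes span a median of 73.6 kb, and the list's median fold was 0.0027 in the 3 libraries without liver transcripts.

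Genes of protein breakdown and folding were near the background. Of calpain, cathepsin and atrophy genes 8 of 15 were higher (median 0.02), with CTSB, a lysosomal protease, at 0.19 ± 0.12 and CAPN1, the calpain that tenderises meat, at 154, 163 and 146 CPM in high and 150, 152 and 126 CPM in low drip males (0.12 ± 0.13). Proteasome genes were lower in 12 of 17 (median -0.03), with PSMC1, PSMD3 and PSMD6 between -0.21 and 0.15. Heat shock genes were lower in 13 of 19 (median -0.08). Among them HSP90AB1, a cytosolic HSP90 chaperone that holds steroid receptors ready for hormone, was at 667, 625 and 642 CPM in high and 832, 709 and 847 CPM in low drip males, without overlap (-0.30 ± 0.13). The mitochondrial chaperonins HSPE1 and HSPD1 had -0.27 ± 0.16 and -0.18 ± 0.14. CAST, the calpain inhibitor, has no identifier here.

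Immediate early genes, transcription factors and signalling proteins induced within minutes of a stimulus, varied far more between animals than between groups. FOS was at 234, 83.0 and 71.0 CPM in high drip males and at 48.7, 587 and 146 CPM in low drip males. Low drip replicate 5 was highest and low drip replicate 4 lowest, so the low drip group spanned both ends (fold -1.01 ± 0.78, edgeR adjusted p = 0.999). NR4A3, a nuclear receptor induced by contraction, ranged from 9.89 CPM in low drip replicate 4 to 359 CPM in low drip replicate 5, and RCAN1, an inhibitor of calcineurin, from 74.8 to 1417 CPM in the same animals.

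The list's direction changed with the animals included. Of 20 tested members 12 were lower (median -0.14), and the median was -0.84 without high drip replicate 4, 0.37 without low drip replicate 5 and 0.40 with the liver transcript division as a term. By animal, the mean deviation was 0.97 in high drip replicate 4 and 1.10 in low drip replicate 5, -0.03 in low drip replicate 6 and -0.486 to -0.998 in the other 3, which are the libraries without liver transcripts. KLF4, a transcription factor, and CCN1, a matricellular protein, had folds of -0.67 ± 0.42 and -0.70 ± 0.49.

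Fat genes leaned lower. In the lipid droplet and lipogenesis list 13 of 17 tested members were lower (median -0.09), with no unadjusted p under 0.05. FASN, the fatty acid synthase, was at 29.0, 16.6 and 50.4 CPM in high and 53.3, 33.7 and 78.8 CPM in low drip males (-0.79 ± 0.40), and CIDEC, a lipid droplet protein, at 6.23, 3.63 and 8.86 against 9.89, 5.38 and 17.7 CPM (-0.81 ± 0.44). In both genes the replicate 5 animals were lowest within their group and the replicate 6 animals highest. DGAT1, which makes triglyceride, had 0.45 ± 0.20 without overlap. Without low drip replicate 6 the list's median was 0.0066. Adipocyte markers were lower in 4 of 5, with a median of -0.37, a fold of -0.57 ± 0.46 for PLIN1, the coat protein of fat droplets, and -0.37 ± 0.30 for the lipase LIPE. Without low drip replicate 6 this median was -0.12, PLIN1 had -0.12 and LIPE -0.09. The summed level of these markers was 217 to 241 CPM in high and 210 to 263 CPM in low drip males. In such bulk samples fewer cells of a type and less RNA per cell cannot be told apart, and the part of fat cells in the lipid genes was not tested.

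Growth, transport and antioxidant lists had medians near 0, with larger folds in single members. Besides IRS1, the insulin and growth list held TBC1D7, a subunit of the TSC complex that restrains mTOR, at 28.5, 19.9 and 33.9 CPM in high and 52.0, 35.0 and 45.2 CPM in low drip males (-0.68 ± 0.22), without overlap. PIK3CA, the catalytic PI3 kinase subunit, had -0.42 ± 0.21, and 11 of 19 members were lower (median -0.08). In water, ion and acid transport 10 of 18 were lower (median -0.02), and besides SLC12A2 and CA3 the sodium and calcium exchanger SLC8A3 had -0.40 ± 0.22. Redox genes were higher in 13 of 18 (median 0.09), with the peroxiredoxin PRDX2 at 0.26 ± 0.12, the quinone reductase NQO1 at 0.32 ± 0.16 and the glutathione transferase GSTA4 at -0.53 ± 0.27. The redox median was 0.0056 without high drip replicate 4.

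The matrix, ribosome, clock and interferon lists had medians within 0.1 of 0. Matrix genes were lower in 16 of 27 (median -0.06). MMP2, a gelatinase, was nevertheless at 136, 123 and 117 CPM in high and 102, 98.3 and 98.1 CPM in low drip males, without overlap (0.33 ± 0.12), and MMP14, which activates it, had 0.31 ± 0.16. The protease ADAMTS8 had -1.11 ± 0.51 but -0.31 without low drip replicate 5, where it reached 90.0 CPM. Ribosomal protein genes were lower in 13 of 19 (median -0.04), with RPLP2, RPS13 and RPS9 between -0.15 and 0.18. Clock genes were lower in 8 of 14 (median -0.07), with RORA above, NFIL3 at -0.65 ± 0.40 and CLOCK at -0.24 ± 0.21. Interferon genes were lower in 9 of 15 (median -0.06), with USP18, IFIH1 and GBP2 between -0.39 and 0.44.

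Most list medians changed with the animals included. Of 30 list medians, cell markers included, 19 changed sign when some single animal was left out and 11 did not, among them those of oxidative phosphorylation, the glucocorticoid response, sarcomere anchors, adipocytes and liver. Each of the 30 moved by over 1.5 times or changed sign in at least 1 such case, as did 76 of 129 named genes and region features.

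**Figure D5:**
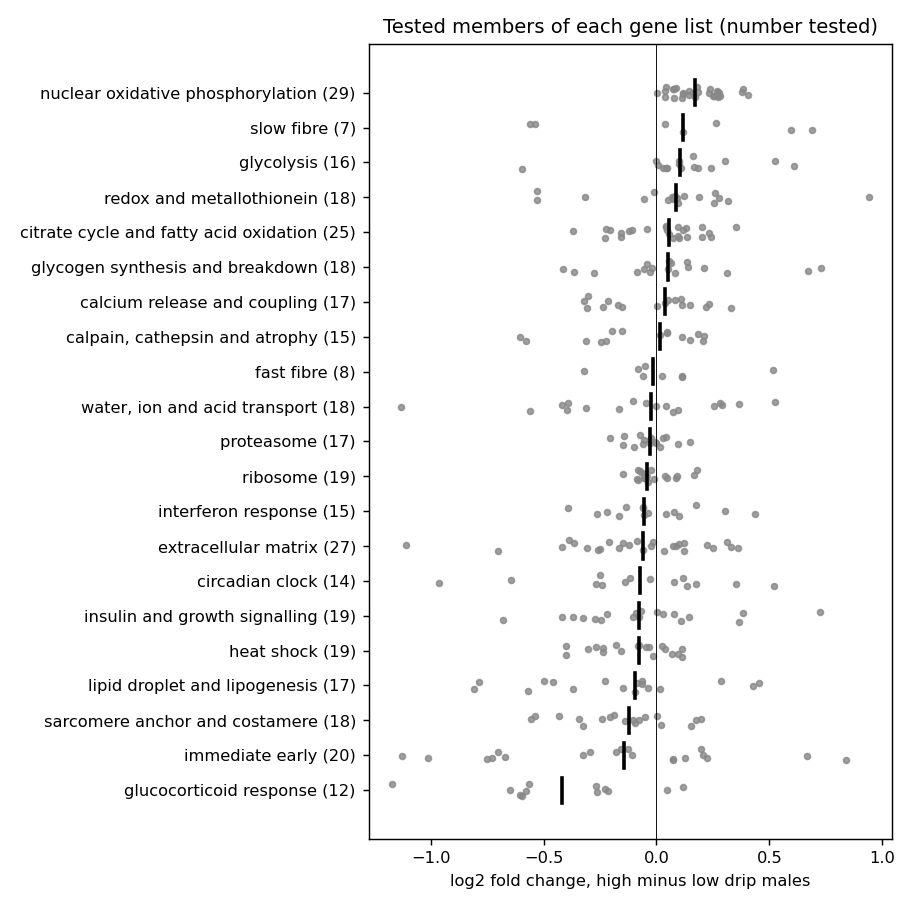
Log2 fold changes (high less low drip males) of the tested members of 21 gene lists, 1 point per gene, with the median of each list as a black bar and the number tested in parentheses. The oxidative phosphorylation points all lie above 0 (median 0.17), the glucocorticoid response has the lowest median (-0.42), and most other medians lie within 0.1 of 0.

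Markers of other cells were checked for differences in tissue make-up. Macrophage markers were lower in 7 of 8 (median -0.12), with summed levels of 46.9 to 87.1 CPM in high and 63.3 to 92.1 CPM in low drip males. LYZ, lysozyme, had the largest fold of these, at 1.86, 0.726 and 3.17 against 5.41, 10.8 and 1.83 CPM (-1.60 ± 0.65), and its fold was -0.86 without low drip replicate 5. The macrophage median turned to 0.06 when low drip replicate 4 was left out, and to 0.02 when either high drip replicate 5 or replicate 6 was. ITGAM and CD68 had -0.40 ± 0.41 and -0.19 ± 0.31. Lymphocyte markers were lower in 4 of 6, with NKG7, CD8A and CCL5 between -0.16 and -0.07. Endothelial markers were higher in 6 of 8 (median 0.18), with the receptors TIE1, ENG and KDR at 0.33, 0.21 and 0.25, and summed levels of 309 to 405 against 273 to 369 CPM.

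Stromal and precursor markers were balanced or rested on few genes. Smooth muscle and pericyte markers were higher in 4 of 8 (median 0.02; CSPG4, SMTN and PDGFRB at 0.27, 0.09 and 0.09) and fibroblast markers in 4 of 8 (median -0.0030; FBLN1, DCN and LUM at -0.30, -0.15 and 0.07). Satellite cell and myoblast markers were higher in 6 of 9 (median 0.20), but the median was -0.05 without low drip replicate 6 and -0.00074 without high drip replicate 6. Their summed level was 24953 to 31044 CPM in high and 27700 to 32475 CPM in low drip males. How much of it came from muscle fibres was not tested. The myogenic factors MYF5 and MYF6 had 0.53 ± 0.33 and -0.61 ± 0.39, and the embryonic myosin MYH3, which shares sequence with other myosins, 0.27 ± 0.19. MYF6 was at 138 CPM in high drip replicate 6 and 286 to 555 CPM in the other males. Of the skeletal muscle markers 4 of 8 were higher, with MYBPC1 at -0.21 ± 0.14 and ENO3 at 0.17 ± 0.17. HBB, of haemoglobin, had 0.02 ± 0.24, and no neutrophil marker passed the filter on low counts. Transferrin (TF), among the liver markers, was at 2.70, 0.726 and 0.560 against 0.937, 11.5 and 7.50 CPM (-2.29 ± 0.83), and AHSG, another plasma protein, had -2.54 ± 1.23. Both followed ALB by animal.

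The region tables gave a second count of genes under loci for water holding capacity. They hold 329 Ensembl genes and 441 features with HSMMG identifiers, which are paired with no gene here, and 450 of the 770 were tested. None passed (0 of 450, 0%, edgeR smallest adjusted p = 0.995). A p below 0.05 before adjustment belonged to 18 (4%), 9 in each direction (2% each), where 22.5 would be expected with no difference. Voom gave 0 passing features and 15 below 0.05 before adjustment, DESeq2 1 and 11. In edgeR without low drip replicate 6, 1 passed (the same feature as in the whole-genome tables, with the same limit) and 11 had such a p. Without low drip replicate 4 none passed and 30 had such a p. The groups did not overlap for 33 (7.33%), 13 with high drip males above (2.89%) and 20 below (4.44%). CPM in these tables is scaled to the tested region features alone, so levels are not on the scale used above.

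TCP11L2 had the smallest p of the named region genes. It was at 1463, 1188 and 1426 CPM in high and 2317, 1793 and 1862 CPM in low drip males (fold -0.55 ± 0.16, edgeR adjusted p = 0.995). OTUD7B, a deubiquitinase, was at 3776, 3908 and 3609 against 4279, 5485 and 5016 CPM (-0.39 ± 0.13). Neither gene's groups overlapped. ST13, a cochaperone of HSP70, and FOXK2, a forkhead factor, had -0.33 ± 0.15 and -0.24 ± 0.12, also without overlap, and NR3C1 had -0.66 ± 0.27.

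On the higher side, PRKAG3 was at 5956, 9155 and 11524 CPM in high and 7409, 4611 and 4916 CPM in low drip males (0.65 ± 0.27), with the same order of animals as in the whole-genome tables. PMM1, a phosphomannomutase, was at 442, 380 and 398 against 349, 231 and 294 CPM (0.48 ± 0.24), without overlap. The nuclear receptor NR2F6, the sterol hydroxylase CYP27A1 and WDR6 had 0.27, 0.30 and 0.37.

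Of the unnamed features, HSMMG175 was at 1601, 3445 and 4313 CPM in high and 1371, 375 and 857 CPM in low drip males (1.84 ± 0.50), and HSMMG414 at 281, 255 and 318 against 635, 444 and 558 CPM (-0.93 ± 0.23). In HSMMG175 the high drip animals took the order of PRKAG3, with replicate 4 lowest and replicate 6 highest. In the whole-genome tables HSMMG174, HSMMG176 and HSMMG187, chosen after their values were seen, also had their highest low drip value in replicate 4. Their folds were 1.47 ± 0.46, 1.86 ± 0.67 and 1.00 ± 0.32. In each, high drip replicate 4 lay below low drip replicate 4, so the groups overlapped, and HSMMG176 rested on 3 to 50 counts. In DESeq2 HSMMG175 passed in the region tables (adjusted p = 0.00218), the only region feature to do so. Over 449 features tested in both tables the region fold less the whole-genome fold had a median of -0.08. No feature's difference lay more than 0.3 from that median, and the 2 folds had the same sign in 381 of the 449. The tables of an animal share nearly all counts, so this is no independent support.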

How the data were processed

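Muscle RNA (Trizol, DNase I) was sequenced from TruSeq v2 libraries, per the labels' protocols. Per the submitters' processing notes the authors used TopHat2 2.0.3, Bowtie 0.12.7.0 and HTSeq with Sscrofa10.2. The deposited values are raw counts per feature. The annotation release and strand setting are not given in the sources used here, so reads of overlapping antisense genes cannot be told apart. The 5 HTSeq summary rows were left out. Reads with no feature made up 26.6% to 29.3%.

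The males' counts went into edgeR 4.0.16 under R 4.3.3 (filterByExpr, TMM, quasi-likelihood F-test, two-sided, Benjamini-Hochberg adjustment, threshold 0.05). Symbols came from a table of gene IDs (10349 of 20300 Ensembl genes). CPM uses the tested features' total and TMM factors. ALB was compared by an exact permutation test with a pseudocount of 0.5 CPM, and libraries above 10 CPM count as holding liver transcripts. Lists are described by counts and medians. The members, lists and named genes were chosen with earlier results of these data known. The rule names the 10 genes with a symbol and the smallest p each way, 3 members of each list, genes always given, and, for region features, 5 genes each way and 2 unnamed features. Some genes that it took are not reported here and were not replaced. Genes outside it are TNNT1, PDK4, FBXO32, CSRP3, HK2, NR4A3, RCAN1, COX4I1 and ATP5MC1, chosen after their values were seen. Other normalizations, DESeq2 1.42.0, limma 3.58.1 (voom), filters, terms and left-out animals were tried. A joint fit with female libraries, read for the male groups only, was tried as well. The steps were tested on simulated data. The whole-genome tables of 3 females, which name another animal than their record, were not used.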

Additional observations from a re-analysis of the deposited data

How the results depend on the processing

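With edgeR the count of passing features was 0 under every other scaling, filter and term tried, and with voom. It was 3 in DESeq2 (SLC12A2, ENSSSCG00000027496 and ENSSSCG00000028808), 0 to 1 with any single animal left out (1 without low drip replicate 6, ENSSSCG00000021119) and 3 within the libraries without liver transcripts, where 1 low drip male is assumed to vary like the others. In the region tables it was 1 in DESeq2 (HSMMG175) and 0 to 1 with an animal left out (1 without low drip replicate 6, the same gene as in the whole-genome tables). ENSSSCG00000021119 met the filter on low counts there only through the low drip males left in, so its passing adds no support. Whole-genome features with an unadjusted p under 0.05 numbered 258 without low drip replicate 6, 811 without low drip replicate 4 and 887 within the libraries with liver transcripts, against 422. The cause was not tested. The ALB difference lay between -3.71 and -1.21 with an animal left out and stayed negative under the other settings. Settings included a joint fit with female libraries, in which only the male groups were compared. Of 129 named genes and region features, 94 kept their sign in every setting run, and 2 passed in DESeq2. Where the groups do not overlap, leaving out or splitting animals could hardly change the sign. The folds that changed sign were, with age as a term FBXO32 -0.15, LDHA 0.0015; within the libraries with liver transcripts CD68 0.43, CD8A 0.31, DCN 0.19, IFIH1 0.0027, LDHA 0.092, PHKG1 -0.065, SMDT1 -6.34, SMTN -0.0070; within the libraries without liver transcripts ADAMTS8 0.60, CCL5 0.72, CSRP3 0.44, FBXO32 -0.069, FOS 0.66, HBB -0.17, KLF4 0.068, MYBPC2 -0.18, MYH3 -0.14, NFIL3 0.20, NR3C1 0.0082, NR4A3 1.61, PIK3CA 0.16, PSMC1 0.00078, PSMD3 -0.0066, PSMD6 0.16, PYGM -0.19, RPLP2 -0.14, SLC16A3 -0.62, USP18 -0.023; in voom FBXO32 -0.29, PDGFRB -0.013, SMDT1 -1.41; with the liver transcript division as a term CCL5 0.11, CSRP3 0.011, HBB -0.030, LDHA 0.035, NR4A3 0.43, SMDT1 -0.73; with a mean of at least 5 CPM LDHA 0.0086. With any single animal left out, genes whose fold changed sign ranged as follows: ATP2A1 -0.014 to 0.19, CCL5 -0.33 to 0.13, CCN1 -1.23 to 0.032, CD68 -0.64 to 0.023, CD8A -0.40 to 0.043, DCN -0.32 to 0.0079, FBXO32 -0.30 to 0.50, FOS -1.76 to 0.43, HBB -0.22 to 0.20, HK2 -0.57 to 0.96, LDHA -0.062 to 0.054, LUM -0.075 to 0.22, NFIL3 -0.95 to 0.069, NKG7 -0.43 to 0.054, NR4A3 -2.46 to 0.15, PDGFRB -0.18 to 0.38, PYGM -0.050 to 0.21, RCAN1 -0.58 to 2.003, SMDT1 -0.60 to 0.92, SMTN -0.0036 to 0.15. Of 30 list medians, 14 moved by more than the spread between animals in a setting. No paired analysis was possible because the labels give no replicate numbers. With 3 animals a side and about 0.1 CPM per count, genes at a few CPM rest on few reads.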

Other observations

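Features below have no symbol here and were chosen after their values were seen, and their values are given without an explanation. ENSSSCG00000021119, in the regions with loci for water holding capacity, had 102 and 142 counts in low drip replicates 4 and 5, and 0, 0 and 1 counts in high drip replicates 4, 5 and 6 and 0 in low drip replicate 6. It did not pass the filter on low counts with all 6 males. The animals with and without it cross the drip labels, and it is the feature that passed without low drip replicate 6. In that setting it met the filter only through low drip replicates 4 and 5, and the low drip male without it was left out. Its passing there adds no support.

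ENSSSCG00000027496 was at 13.8, 7.75 and 10.5 CPM in high and 4.79, 2.88 and 3.84 CPM in low drip males (fold 1.49 ± 0.29), and ENSSSCG00000028808 at 14.1, 9.56 and 4.76 against 22.9, 21.1 and 52.7 CPM (-1.77 ± 0.45). The groups overlapped in neither, and both passed in DESeq2 only (adjusted p = 0.0296). ENSSSCG00000007053 and ENSSSCG00000028962 set low drip replicate 4 apart. The first was at 30.9 CPM there and 239 to 375 CPM in the other males, and the second at 0.937 CPM there and 8.92 to 20.1 CPM in the others. HSMMG168 had 6.54 CPM in high drip replicate 5 and 0.576 to 1.77 CPM elsewhere.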
